A study of Homo sapiens with 12 samples.

Results

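Transcript levels of 10 genes of bone morphogenetic protein (BMP) signalling were followed through the hepatic differentiation of H9 cells, an established human embryonic stem cell line, with and without thyroid hormone. The genes were chosen by name, with earlier results of these data known. Counts of members called are therefore set beside all genes as description only. The members were the ligand genes BMP2, BMP4 and BMP7, the extracellular modulators BMPER and NOG, the inhibitory SMAD gene SMAD6, and ID1, ID2, ID3 and ID4. All 10 were found by Entrez gene number among the 23922 genes listed, and all 10 were among the 18101 genes that passed the filter on low counts. Cells at day 7 were labelled hepatoblasts and cells at day 19 hepatocytes. On each day there were 3 groups of 2 libraries: control cells in 0.1% DMSO, cells given 30 nM T3 (triiodothyronine) and cells given 30 nM T4 (thyroxine, which carries 1 more iodine). The cells of the 6 groups shared the H9 line, a vitronectin coating, mTeSR1 medium before differentiation and 1 differentiation protocol, and no genetic change is named for any of them. The labels do not state the day on which hormone was added, its vehicle, or whether libraries of the same group stem from separate cultures. The p-values below therefore rest on a spread between libraries that may be technical.

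BMP ligands bind pairs of type I and type II serine/threonine kinase receptors. The receptors phosphorylate SMAD1, SMAD5 and SMAD9, which enter the nucleus with SMAD4 and raise transcription of targets that include the ID genes and SMAD6. ID proteins hold a helix-loop-helix domain without a DNA-binding region and tie up E proteins, the partners of lineage-specific helix-loop-helix factors, while SMAD6 and the secreted antagonist noggin (NOG) limit the signal. In the embryo, BMP from the septum transversum mesenchyme takes part in specifying liver from foregut endoderm.

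The promoters of ID1 and SMAD6 are shown because both genes are textbook BMP targets whose transcripts moved in opposite directions with hormone (below). Each stretch is the 250 bases before the RefSeq start of the gene on the plus strand of GRCh38.p14, at chr20:31605039-31605288 for ID1 and chr15:66701986-66702235 for SMAD6. Capitals mark the TATAAA motif and its overlapping reverse match in ID1, and the SMAD palindrome GTCTAGAC in SMAD6.
ID1: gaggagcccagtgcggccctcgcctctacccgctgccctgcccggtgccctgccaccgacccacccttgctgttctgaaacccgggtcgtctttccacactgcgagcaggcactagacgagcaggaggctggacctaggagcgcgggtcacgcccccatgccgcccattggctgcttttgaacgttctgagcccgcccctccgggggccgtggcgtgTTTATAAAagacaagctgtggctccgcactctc
SMAD6: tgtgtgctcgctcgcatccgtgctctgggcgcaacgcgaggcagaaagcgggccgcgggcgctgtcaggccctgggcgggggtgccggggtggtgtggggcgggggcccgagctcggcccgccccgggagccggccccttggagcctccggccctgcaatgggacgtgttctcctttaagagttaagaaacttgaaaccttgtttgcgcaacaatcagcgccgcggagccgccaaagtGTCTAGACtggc
The G and C bases made up 66.0% of the ID1 stretch and 68.0% of the SMAD6 stretch. Windows from 250 bases before to 50 bases after a start were held for 7 of the 10 genes (10 windows), and not for BMP2, BMP7 and NOG. GTCTAGAC, searched on both strands, was found in 0.202% of 35116 windows of all genes and in 1 of the 10 windows, that of SMAD6, from 12 to 5 bases before the start. TATAAA was found in 11.5% of all windows and in those of ID1, from 31 to 26 bases before the start, and ID4, from 29 to 24 bases before it. AGGTCA, the core of nuclear receptor elements, was found in 13.8% of all windows and in that of ID3, from 8 to 13 bases into the transcript. A second palindrome, GGCGCC, was found in 19.2% of all windows and in those of BMP4 and BMPER, and the E-box CACGTG in 7.26% of all windows and in 1 window of BMP4. These matches describe the letters of the windows and show no binding.

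Each library held 18363548 to 19306147 expected counts, and the members had from 22 counts (NOG) to 12330 counts (ID1) in a library. Levels are given as CPM (counts scaled to library size by TMM), and a gene is called changed at an adjusted p of at most 0.05 in edgeR's quasi-likelihood test with Benjamini-Hochberg adjustment over all genes tested. The labelled cell type was checked against 10 hepatoblast and hepatocyte markers, none of which was at 0 in any group. Their summed level was 5241 to 5271 CPM in DMSO at day 7 and 63790 to 67440 CPM in DMSO at day 19, but 2907 to 3898 CPM with T3 and 7438 to 8346 CPM with T4 at day 19. ALB, which encodes albumin, was at 17.8 and 20.8 CPM in the day 19 DMSO libraries, at 0.898 and 1.57 CPM with T3, and at 3.14 and 2.50 CPM with T4. The day 19 hormone libraries thus lay far below their control in the markers of the cell type they are labelled with. In bulk RNA, fewer cells of a type and less RNA per cell cannot be told apart.

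Per transcript length, ID1, ID2 and ID3 were far above the ligand genes, and ID4 was not. In DMSO at day 7 the FPKM values (fragments scaled to transcript length and library size) of ID1 to ID4 summed to 1064 ± 9.90 (SD, n = 2), and those of BMP2, BMP4 and BMP7 to 86.0 ± 1.75. ID1 held 53.9% ± 0.24 of the ID sum and ID4 3.39% ± 0.028. At 36.1 ± 0.63 FPKM, ID4 lay slightly below BMP2 (39.2 ± 0.21 FPKM) and BMP4 (37.1 ± 1.56 FPKM). BMP2 and BMP4 held nearly equal shares of the ligand sum, at 45.6% ± 0.69 and 43.2% ± 0.93, and BMP7 held 11.3% ± 0.25. NOG stood at 9.94 ± 0.11 FPKM and BMPER at 2.75 ± 0.13 FPKM, while SMAD6 stood at 32.4 ± 0.064 FPKM.

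**Figure D1:**
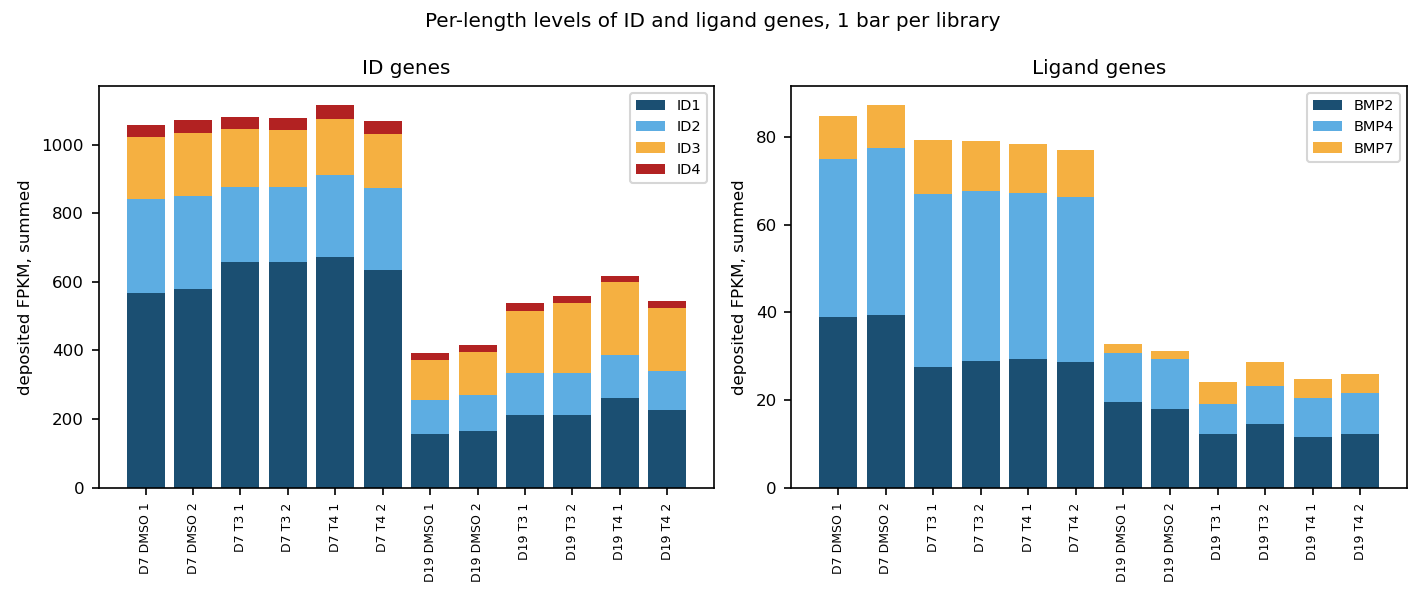
Deposited FPKM values (y axis) of the 4 ID genes (left, colours) and the 3 ligand genes (right, colours), stacked for each of the 12 libraries (x axis: day, treatment and replicate number). Day 7 libraries reach ID sums of 1057 to 1115 and day 19 libraries 393 to 616, with a larger ID3 part at day 19.

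In DMSO cells every member fell between day 7 and day 19. All 10 passed the test in that direction, where 34.9% of all genes tested were lower and 72.4% were called in either direction; the median log2 fold change of the members was -1.05 and that of all genes -0.0013. The steepest falls were those of BMPER (log2 fold change -2.16, SE 0.154, adjusted p = 8.6e-09), BMP7 (-1.94, SE 0.0941, adjusted p = 1.2e-10) and ID1 (-1.45, SE 0.0667, adjusted p = 6.4e-11). BMP4 followed at -1.30, NOG at -1.12, ID2 at -0.99, BMP2 at -0.66, SMAD6 at -0.49 and ID4 at -0.44. ID3 fell least, by 0.19 on the log2 scale (adjusted p = 0.022), and its call was lost without day 7 DMSO replicate 1 (0.0574), day 7 DMSO replicate 2 (0.101) or day 19 DMSO replicate 1 (0.121). On the FPKM scale the median of all genes itself fell by 0.38, so falls on that scale are relative to it. ID3 rose from 17.2% ± 0.13 of the ID sum in FPKM at day 7 to 29.9% ± 0.078 at day 19, and ID1 went from 53.9% to 39.5% ± 0.042. The day separates the libraries completely, and any other difference between the days of collection cannot be told apart from it.

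**Figure D2:**
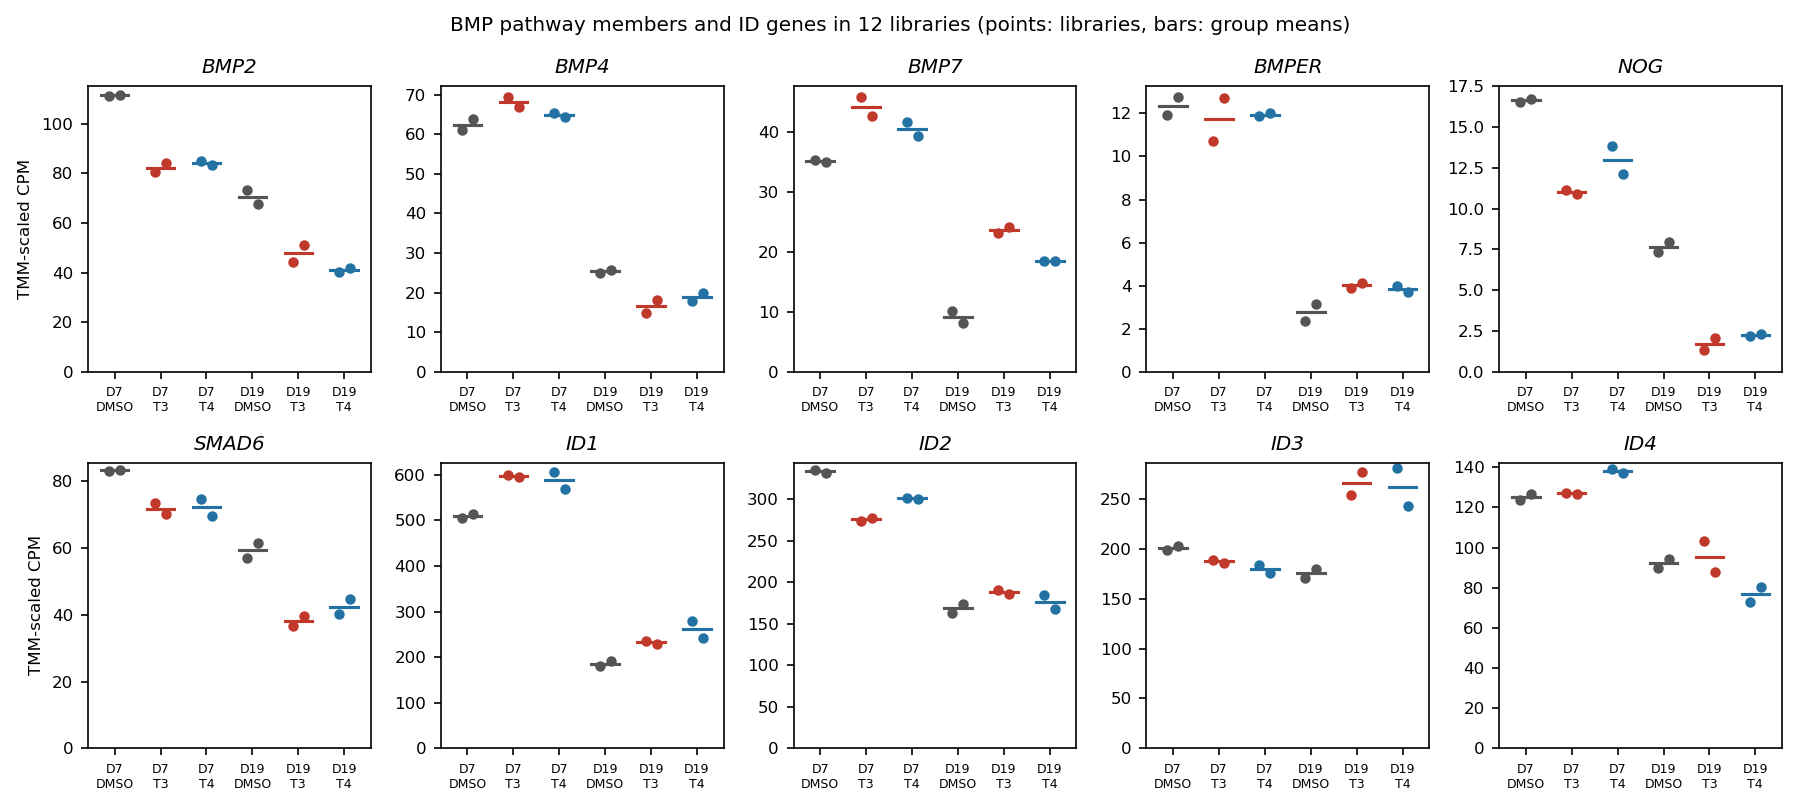
TMM-scaled CPM (y axis, from 0) of the 10 members in the 6 groups (x axis, D7 and D19 for day 7 and day 19); points are libraries and bars are means of 2. At day 19 the hormone libraries of BMP7 and ID3 lie above and those of NOG below both DMSO libraries.

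At day 7, T3 moved 6 of the 10 members, 2 higher and 4 lower, against 16.0% of all genes called (9.43% higher and 6.54% lower). BMP2 and NOG fell, BMP7 and ID1 rose, and SMAD6 and ID2 fell slightly. The count was 2 without DMSO replicate 1 or T3 replicate 1, 3 without DMSO replicate 2 and 4 without T3 replicate 2. T4 moved 1 member, BMP2, against 6.42% of all genes called (3.90% higher and 2.52% lower). For T4, 7 members were below 0.05 in unadjusted p, as were 20.9% of all genes. When the fit held day 7 libraries only, 8 members were called with T4, all but BMP4 and BMPER. The genes called in all then went from 1162 to 3460. In that fit ID3 was called with T3 too (adjusted p = 0.0224). At day 19, T3 moved 9 of the 10 members, 5 higher and 4 lower, where 52.3% of all genes were called (25.1% higher and 27.3% lower). T4 likewise moved 9, with 4 higher and 5 lower, where 42.8% of all genes were called (21.0% higher and 21.9% lower). At day 19 both hormones lowered BMP2, BMP4, NOG and SMAD6 and raised BMP7, BMPER, ID1 and ID3. The T3 and T4 comparisons of a day share their DMSO libraries.

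**Figure D3:**
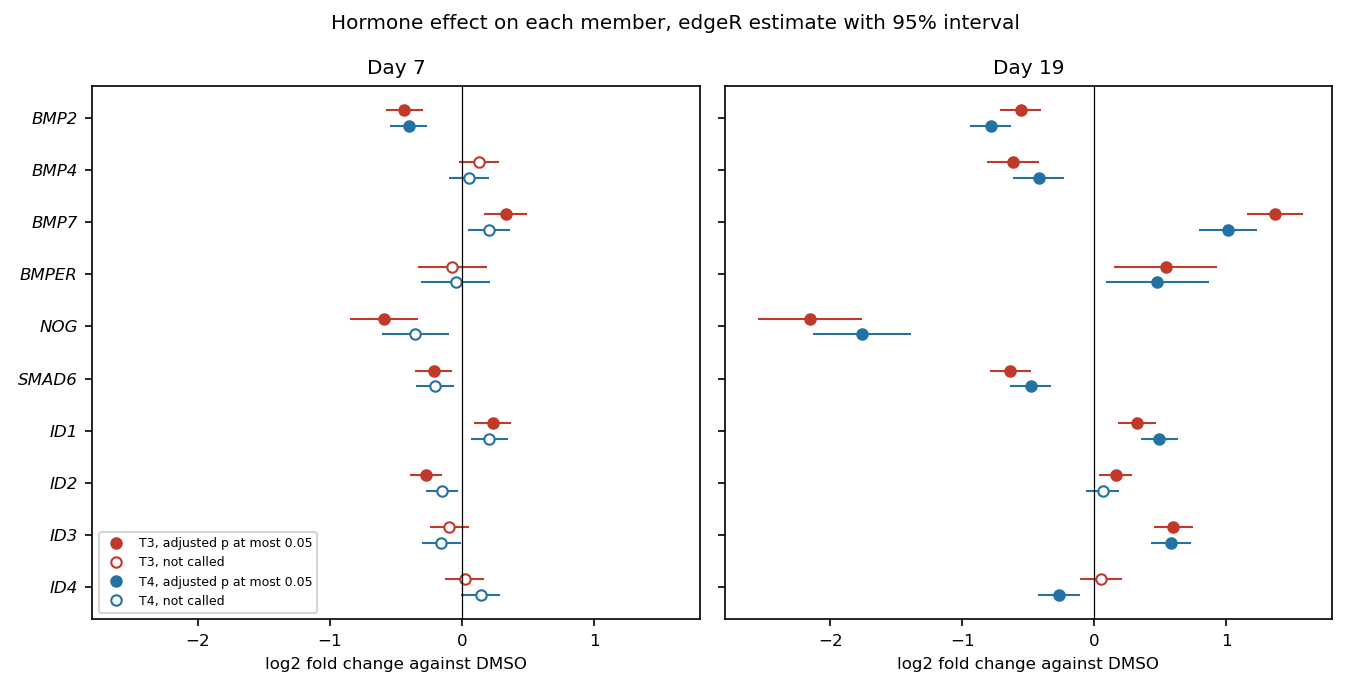
Log2 fold change against DMSO (x axis) of each member (y axis) at day 7 (left) and day 19 (right) for T3 (red) and T4 (blue), with 95% intervals; filled points passed an adjusted p of 0.05. NOG reaches -2.16 with T3 at day 19 and BMP7 reaches 1.37, while day 7 values stay between -0.59 and 0.33.

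The 3 ligand genes did not move together. BMP2 (Entrez gene 650, chromosome 20, 6767686 to 6780246) encodes a ligand also known for bone and heart formation. Its levels at day 7 were 111.1 and 111.6 CPM in DMSO, 80.3 and 84.2 CPM with T3, and 85.1 and 83.2 CPM with T4. At day 19 they were 73.3 and 67.7 CPM in DMSO, 44.4 and 51.2 CPM with T3, and 40.1 and 41.7 CPM with T4. On both days every hormone library lay below both DMSO libraries, and every day 19 library lay below every day 7 library. The log2 fold change was -0.44 with T3 (SE 0.0655, adjusted p = 4.3e-04) and -0.40 with T4 (SE 0.0654, adjusted p = 0.0019) at day 7. At day 19 it was -0.56 with T3 (SE 0.0714, adjusted p = 1.1e-05) and -0.78 with T4 (SE 0.0722, adjusted p = 6.4e-07). BMP2 was the only member that passed the test with both hormones on both days.

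BMP4 (Entrez gene 652, chromosome 14, 53949736 to 53956891) encodes the ligand most used to direct stem cells to liver. At day 7 it was at 61.0 and 63.7 CPM in DMSO, 69.4 and 66.9 CPM with T3, and 65.5 and 64.2 CPM with T4. These values lay close together, and neither hormone passed the test (log2 fold changes of 0.13 and 0.06, adjusted p = 0.246 and 0.719). At day 19 the DMSO libraries were at 24.9 and 25.8 CPM, the T3 libraries at 14.9 and 18.2 CPM, and the T4 libraries at 17.98 and 19.8 CPM. Both hormone groups lay below DMSO, with log2 fold changes of -0.62 for T3 (SE 0.0918, adjusted p = 4.9e-05) and -0.42 for T4 (SE 0.0896, adjusted p = 0.0014). RSEM divided the BMP4 counts between 2 transcripts, and the share of NM_130850 in the gene's expected counts went from 0% to 42.2% over the libraries. The 2 ends of that range included both T4 libraries of day 19, so this split was too unstable to compare groups.

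BMP7 (Entrez gene 655, chromosome 20, 57168753 to 57266641), known for its part in kidney formation, went the other way. The day 7 libraries were at 35.2 and 35.0 CPM in DMSO, 45.7 and 42.6 CPM with T3, and 41.6 and 39.3 CPM with T4. At day 19 it was at 10.2 and 8.14 CPM in DMSO, 23.2 and 24.1 CPM with T3, and 18.5 and 18.5 CPM with T4. All hormone libraries lay above the DMSO libraries of their day. At day 19 the log2 fold change was 1.37 with T3 (SE 0.0999, adjusted p = 2.9e-08) and 1.01 with T4 (SE 0.103, adjusted p = 1.7e-06), a 2.58-fold and a 2.02-fold rise. The day 7 value was 0.33 with T3 (SE 0.0751, adjusted p = 0.0083) and 0.20 with T4 (adjusted p = 0.133). In the day 7 libraries alone the T4 change passed (adjusted p = 0.01965). The day 7 call with T3 was lost without DMSO replicate 1 (adjusted p = 0.0655), DMSO replicate 2 (0.0704) or T3 replicate 1 (0.103), and with limma on log2(FPKM + 0.1) (0.0861). An antisense gene, BMP7-AS1, lies within BMP7 without sharing its exons, and the strand of counting is not given in the sources used here. In FPKM, BMP7 held 5.98% ± 0.74 of the ligand sum in DMSO at day 19, 19.95% ± 1.46 with T3 and 16.7% ± 0.45 with T4. The ligand sum itself was 32.0 ± 1.18 FPKM in DMSO, 26.3 ± 3.21 FPKM with T3 and 25.3 ± 0.77 FPKM with T4.

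Among the extracellular modulators, NOG fell and BMPER rose at day 19. NOG (Entrez gene 9241, chromosome 17, 56593699 to 56595611) encodes noggin, which binds BMP2 and BMP4 tightly and keeps them from their receptors. Its levels at day 7 were 16.5 and 16.7 CPM in DMSO, 11.1 and 10.9 CPM with T3, and 13.9 and 12.1 CPM with T4. At day 19 they were 7.33 and 7.96 CPM in DMSO, 1.32 and 2.09 CPM with T3, and 2.17 and 2.33 CPM with T4. The hormone libraries lay below DMSO on both days, and the 2 T3 libraries of day 19 were the lowest. The day 19 log2 fold changes of -2.16 with T3 (SE 0.184, adjusted p = 1.6e-07) and -1.76 with T4 (SE 0.173, adjusted p = 1.2e-06), 4.45-fold and 3.39-fold falls, were the largest hormone changes among the 10 members. At day 7 NOG changed by -0.59 with T3 (SE 0.121, adjusted p = 0.0041) and by -0.36 with T4, which missed the threshold (adjusted p = 0.0969). That T4 change passed in the day 7 libraries alone (adjusted p = 0.00804).

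BMPER (Entrez gene 168667, chromosome 7, 33904915 to 34156427) encodes a secreted protein that binds BMPs and can limit or favour their signal. At day 7 its 6 libraries ranged from 10.7 to 12.8 CPM with overlapping groups, and neither hormone passed the test (log2 fold changes of -0.07 and -0.05, adjusted p = 0.745 and 0.881). At day 19 it was at 2.36 and 3.16 CPM in DMSO, 3.89 and 4.13 CPM with T3, and 3.995 and 3.70 CPM with T4. The hormone libraries lay above DMSO, by 0.54 with T3 (SE 0.183, adjusted p = 0.0225) and 0.48 with T4 (SE 0.183, adjusted p = 0.0483) on the log2 scale. Both calls were fragile. That of T3 was lost without DMSO replicate 1 (adjusted p = 0.218) or T3 replicate 2 (0.0867), in DESeq2 (0.0578) and in the day 19 libraries alone (0.0538). That of T4 was lost without DMSO replicate 1 (0.358), T4 replicate 1 (0.179) or T4 replicate 2 (0.0791), in DESeq2 (0.142), without a filter on low counts (0.0607), with limma on log2(FPKM + 1) (0.0533) and in the day 19 libraries alone (0.103).

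SMAD6 (Entrez gene 4091, chromosome 15, 66702236 to 66782849), the inhibitory SMAD whose promoter is printed above, fell with both hormones at day 19. Its levels at day 19 were 57.0 and 61.6 CPM in DMSO, 36.8 and 39.6 CPM with T3, and 40.2 and 44.7 CPM with T4. All 4 hormone libraries lay below both DMSO libraries, with log2 fold changes of -0.64 for T3 (SE 0.0734, adjusted p = 3.9e-06) and -0.48 for T4 (SE 0.0724, adjusted p = 7.7e-05). Day 7 levels were 83.2 and 83.3 CPM in DMSO, 73.4 and 70.2 CPM with T3, and 74.8 and 69.5 CPM with T4. The fall by 0.21 with T3 passed the test narrowly (adjusted p = 0.0414), and that by 0.21 with T4 did not (adjusted p = 0.0857). In the day 7 libraries alone the T4 fall passed (adjusted p = 0.00308). The T3 call was lost when any of the 4 libraries was left out (adjusted p of 0.114 to 0.246), in DESeq2 (0.11) and without a filter on low counts (0.0589). A noncoding SMAD6 transcript, NR_027654, held 0% to 5.63% of the gene's expected counts.

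The ID genes, known targets of BMP signalling, split by member and day. ID1 (Entrez gene 3397, chromosome 20, 31605289 to 31606510) is the classic direct target of the BMP SMADs. It was at 505 and 513 CPM in DMSO at day 7, 599.7 and 596 CPM with T3, and 606 and 570.1 CPM with T4. At day 19 it was at 180.0 and 192 CPM in DMSO, 236 and 229.8 CPM with T3, and 280.1 and 243 CPM with T4. On both days every hormone library lay above both DMSO libraries. At day 19 the log2 fold change was 0.33 with T3 (SE 0.0667, adjusted p = 8.2e-04) and 0.49 with T4 (SE 0.0666, adjusted p = 2.9e-05). The day 7 value was 0.23 with T3 (SE 0.0642, adjusted p = 0.0242) and 0.21 with T4, which did not pass (adjusted p = 0.0737). In the day 7 libraries alone the T4 change passed (adjusted p = 1.4e-04). The day 7 call with T3 was lost when any of the 4 libraries was left out (adjusted p of 0.104 to 0.15) and with limma on FPKM (0.0751 and 0.0687 at pseudocounts of 0.1 and 1). Transcript NM_181353 held 5.29% to 10.99% of the expected counts of ID1 in the 12 libraries, so NM_002165 supplied most of it everywhere.

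ID2 (Entrez gene 3398, chromosome 2, 8682056 to 8684461), which also acts in lymphoid development, moved in opposite directions on the 2 days with T3. At day 7 it was at 336 and 332 CPM in DMSO, 274 and 278 CPM with T3, and 302 and 300.4 CPM with T4. At day 19 it was at 163 and 174 CPM in DMSO, 191 and 186 CPM with T3, and 185 and 167 CPM with T4. With T3 both libraries lay below DMSO at day 7 and above it at day 19, while the T4 and DMSO libraries of day 19 overlapped. The log2 fold change with T3 was -0.27 at day 7 (SE 0.0562, adjusted p = 0.0042) and 0.16 at day 19 (SE 0.0581, adjusted p = 0.0314). The day 7 call was lost without DMSO replicate 1 (adjusted p = 0.0511) or T3 replicate 1 (0.0504). The day 19 call was lost without DMSO replicate 1 (0.195) or T3 replicate 1 (0.109), and in the day 19 libraries alone (0.0897). With T4 the change was -0.15 at day 7 (adjusted p = 0.143) and 0.06 at day 19 (adjusted p = 0.419). The T4 change at day 7 passed in the day 7 libraries alone (adjusted p = 0.00136). That at day 19 passed with limma on FPKM (adjusted p = 0.0102 and 0.0099). ID2-AS1 overlaps exons of ID2 on the opposite strand, and counts of the pair could not be separated with certainty.

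ID3 (Entrez gene 3399, chromosome 1, 23557926 to 23559501) changed with hormone at day 19. Its day 19 levels were 170.5 and 180.1 CPM in DMSO, 254 and 277 CPM with T3, and 281 and 243 CPM with T4. The hormone libraries of day 19 lay above the other 8 libraries in CPM, though in FPKM they overlapped those of DMSO at day 7. The log2 fold changes were 0.60 for T3 (SE 0.0697, adjusted p = 4.2e-06) and 0.58 for T4 (SE 0.0697, adjusted p = 9.4e-06). At day 7 ID3 was at 198 and 203 CPM in DMSO, 189 and 185 CPM with T3, and 184 and 176 CPM with T4. Those differences of -0.10 and -0.16 did not pass (adjusted p = 0.388 and 0.214), but both passed in the day 7 libraries alone (0.0224 and 0.00306).

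ID4 (Entrez gene 3400, chromosome 6, 19837370 to 19842197), best known in neural and mammary cells, had the lowest FPKM of the ID genes in every group. At day 7 its libraries ranged from 124 to 139 CPM, with changes of 0.02 for T3 and 0.14 for T4 that did not pass (adjusted p = 0.894 and 0.275). The T4 change passed in the day 7 libraries alone (adjusted p = 0.0112). At day 19 it was at 90.1 and 94.6 CPM in DMSO, 103 and 87.7 CPM with T3, and 72.9 and 80.5 CPM with T4. The T3 libraries enclosed the DMSO libraries, and the change of 0.05 did not pass (adjusted p = 0.619). With T4 it fell by 0.27 (SE 0.0742, adjusted p = 0.0092). That call was lost without DMSO replicate 2 (adjusted p = 0.0546) or T4 replicate 1 (0.103), with limma on FPKM (0.132 and 0.136), and in the day 19 libraries alone (0.0537). A gene on the opposite strand, AL022068.1, overlaps ID4 outside its exons.

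Summed over the family, ID transcripts at day 19 were higher with hormone. The ID sum was 405 ± 16.5 FPKM in DMSO, 549 ± 13.8 FPKM with T3 and 580.0 ± 50.7 FPKM with T4, each hormone library above both DMSO libraries. In CPM the sums were 622 ± 26.3, 782 ± 2.19 and 776 ± 60.5. In proportion to DMSO the steps with T3 and with T4 were both smaller on that scale, and T4 was not above T3. In FPKM the day 7 sums were 1064 ± 9.90, 1079 ± 1.41 and 1092 ± 31.8, and the T4 libraries overlapped those of DMSO. Within the sum, ID1 took 53.9% in DMSO, 61.0% with T3 and 59.7% with T4 at day 7, and ID2 took 25.5%, 20.3% and 22.0%. At day 19 ID3 took 29.9% in DMSO, 35.3% with T3 and 34.1% with T4. These sums carry no test, since the members were chosen with earlier results known.

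T4 and T3 were compared directly at the same 30 nM dose and day. At day 7 no member passed (0 of 10), where 0.365% of all genes were called. In edgeR 1 member, ID2, was below 0.05 in unadjusted p, as were 7.04% of all genes; DESeq2 and limma on FPKM also called 0. ID2 was 0.13 higher with T4 on the log2 scale (95% interval 0.01 to 0.25), and it passed in the day 7 libraries alone (adjusted p = 0.0201). For NOG the interval of the day 7 difference ran from -0.03 to 0.50 around 0.24, and for BMP2 from -0.11 to 0.17 around 0.03. At day 19, 2 of 10 members passed, where 15.7% of all genes were called and 8.31% were lower with T4. BMP7 was lower with T4 than with T3 by 0.36 on the log2 scale (-0.36, interval -0.55 to -0.17, adjusted p = 0.0138), and ID4 by 0.31 (-0.31, interval -0.47 to -0.16, adjusted p = 0.01).

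Both day 19 calls between the hormones rested on few libraries. That of BMP7 was lost without T3 replicate 2 (adjusted p = 0.0518), T4 replicate 1 (0.0695) or T4 replicate 2 (0.0633), with limma on FPKM (0.0751 and 0.0606), and in the day 19 libraries alone (0.0891). That of ID4 was lost without T3 replicate 1 (0.124) or T4 replicate 1 (0.103), and in the day 19 libraries alone (0.0652). BMP2 missed the threshold (-0.23, interval -0.38 to -0.07, adjusted p = 0.0546) and passed without T3 replicate 1 (0.0169). BMP4 passed only without T3 replicate 2 (0.0331), and ID1 only without T4 replicate 2 (0.0233). For ID3 the interval of the difference ran from -0.17 to 0.13, and for NOG from -0.09 to 0.88.

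Whether a hormone effect differed between the days was tested as the day 19 effect minus the day 7 effect in the same edgeR fit. For T3, 7 of 10 members passed, against 38.0% of all genes, and for T4 also 7 of 10, against 27.7%. BMP4, BMP7, NOG and ID3 passed for both hormones. NOG gave the largest difference for T3 (-1.56, SE 0.225, adjusted p = 7.0e-05), and BMP7 gave 1.04 (SE 0.126, adjusted p = 1.4e-05). For BMP2 the T3 effect did not pass as different (-0.12, adjusted p = 0.351), and for ID1 neither (0.09, adjusted p = 0.467).

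Of 49 other genes of the pathway, 44 were tested. At day 7, T3 moved 9 of them (2 higher, 7 lower) and T4 moved 5 (1 higher, 4 lower), beside 16.0% and 6.42% of all genes. GREM1, which encodes the BMP antagonist gremlin, was the only called gene past a log2 change of 1: it fell from 3.15 ± 0.51 CPM in DMSO to 0.93 ± 0.21 CPM with T3 (-1.75, SE 0.24, adjusted p = 1.9e-04) and 1.47 ± 0.061 CPM with T4 (-1.10, adjusted p = 0.0078). At day 19 GREM1 went the other way, from 4.61 ± 0.16 CPM in DMSO to 9.07 ± 1.57 CPM with T3 (0.98, adjusted p = 2.1e-04) and 8.57 ± 0.23 CPM with T4 (0.89, adjusted p = 6.3e-04). The day 7 call of GREM1 with T4 was lost without DMSO replicate 1 (0.105), T4 replicate 1 (0.0882) or T4 replicate 2 (0.0632). BMPR1A, a type I BMP receptor gene, rose by 0.29 with T3 (adjusted p = 0.0215), a call lost when any of the 4 libraries was left out (adjusted p of 0.0641 to 0.185) and with limma on FPKM (0.089 and 0.0745). With T4, BMPR1A differed by 0.21 (adjusted p = 0.137). In the day 7 libraries alone BMPR1A passed with T4 (adjusted p = 0.00472) and SMAD5 with T3 (0.01655). In the full fit BMPR2, ACVR1, SMAD1, SMAD5 and SMAD4 did not pass with either hormone at day 7. SMAD9, named after its values were seen, did pass: it fell from 29.6 ± 1.41 CPM in DMSO to 20.9 ± 1.07 CPM with T3 (-0.51, adjusted p = 0.0018) and 22.7 ± 1.33 CPM with T4 (-0.38, adjusted p = 0.0209). The T4 call of SMAD9 was lost when any of the 4 libraries was left out (adjusted p of 0.0817 to 0.231) and in DESeq2 (0.132). Left out in turn, 1 library brought the day 7 counts to 4 to 5 for T3 (5 without DMSO replicate 1 or T3 replicate 2, 4 without DMSO replicate 2 or T3 replicate 1) and 1 to 2 for T4 (2 without either DMSO replicate, 1 without either T4 replicate).

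At day 19, T3 moved 23 of the 44 other pathway genes (9 higher, 14 lower) and T4 moved 24 (10 higher, 14 lower), beside 52.3% and 42.8% of all genes. The median log2 fold change of the list was -0.04 with T3 and -0.09 with T4, next to -0.03 and 0.0005 over all genes. Of 9 receptor and coreceptor genes, 3 passed with T3 (2 higher, 1 lower) and 2 with T4 (both higher), and of 4 signal SMAD genes, 1 was lower with T3 and 2 with T4. BMPR1A (-0.19 and -0.12 with T3 and T4), BMPR2 (-0.02 and -0.10), SMAD1 (-0.06 and 0.04) and SMAD4 (-0.13 and -0.11) did not pass. With the replicate block SMAD4 passed with T3 (adjusted p = 0.0353). Without DMSO replicate 2, BMPR1A passed with both hormones (adjusted p = 0.0032 and 0.0174) and BMPR2 with T4 (0.0386); without T3 replicate 2, SMAD4 passed with T3 (0.0485). SMAD5 fell by 0.23 with T3 (adjusted p = 0.01) and 0.19 with T4 (adjusted p = 0.0364). The SMAD5 calls were lost without DMSO replicate 1 (0.154 and 0.403, at changes of -0.12 and -0.08), without T3 replicate 2 (0.0558) or T4 replicate 1 (0.205), in DESeq2 (0.0561 and 0.0975), with limma on log2(FPKM + 0.1) (0.1 and 0.599, at changes of -0.15 and -0.05) and log2(FPKM + 1) (0.103 and 0.605), and in the day 19 libraries alone (0.0681 and 0.139); that of T4 was lost without a filter on low counts too (0.0503). Without DMSO replicate 2 its change with T4 was -0.29. ACVR1, another type I receptor gene, rose from 18.8 ± 0.93 CPM to 32.5 ± 2.46 CPM with T3 (0.79, SE 0.0773, adjusted p = 6.9e-07) and 23.95 ± 0.29 CPM with T4 (0.35, SE 0.0795, adjusted p = 0.0026). Chosen after its values were seen, ACVR2A, a type II receptor gene, fell by 0.43 with T3 (adjusted p = 0.0035). SMAD9, chosen in the same way, fell by 0.37 with T4 (adjusted p = 0.045), a call lost without DMSO replicate 1 (0.238), T4 replicate 1 (0.146) or T4 replicate 2 (0.104), with the replicate block (0.0537) and in DESeq2 (0.164).

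The 2 homeobox genes of the target list, both known to respond to BMP, moved apart. MSX2 was at 121 and 113 CPM in DMSO, 462 and 399 CPM with T3, and 319.9 and 319 CPM with T4 (log2 fold changes 1.88 and 1.45, adjusted p = 1.9e-11 and 6.1e-10). MSX1 was at 28.2 and 29.8 CPM in DMSO, 7.84 and 8.73 CPM with T3, and 9.47 and 10.2 CPM with T4 (-1.81 and -1.56, adjusted p = 5.5e-10 and 4.0e-09). The hormone libraries of MSX2 lay above and those of MSX1 below the DMSO libraries. RGMA, which encodes a BMP coreceptor, rose from 4.40 ± 0.46 CPM to 13.2 ± 0.52 CPM with T3 and 10.3 ± 0.55 CPM with T4 (1.59 and 1.23, adjusted p = 1.3e-08 and 5.4e-07).

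Ligand genes outside the members mostly fell at day 19: 5 of the 8 tested were lower and 1 higher with T3, and 5 lower and 0 higher with T4, by edgeR. Of all genes, 27.3% were lower and 25.1% higher with T3, and 21.9% lower and 21.0% higher with T4. GDF6 fell from 64.6 ± 4.05 CPM to 21.1 ± 2.16 CPM with T3 (-1.61, adjusted p = 7.4e-10). It also fell with T4, to 45.9 ± 0.35 CPM (-0.49, adjusted p = 1.1e-04). GDF7 fell from 2.88 ± 0.73 CPM to 0.206 ± 0.038 CPM with T3 (-3.76) and 0.683 ± 0.16 CPM with T4 (-2.07). BMP5 fell by 1.70 with T3 and 1.34 with T4, and BMP8B by 2.14 and 1.79; BMP8A and BMP8B are near-identical copies, so the division of their counts is uncertain. BMP8A itself fell by 1.24 and 1.27. The T3 libraries of BMP5 differed widely: its change was -1.08 without T3 replicate 1 and -2.803 without T3 replicate 2, and it passed both ways. GDF6 and GDF7 were the pathway genes past a log2 difference of 1 between the hormones at day 19, higher with T4 by 1.12 (adjusted p = 2.1e-06) and 1.69 (adjusted p = 0.0358). The GDF7 difference was lost when any of the 4 libraries was left out (without T3 replicate 1, T3 replicate 2, T4 replicate 1 and T4 replicate 2: 0.192, 0.0781, 0.0584 and 0.177) and in DESeq2 (0.164). In all, 11 of the 44 passed between the hormones at day 19 (4 higher with T4, 7 lower), beside 15.7% of all genes, and 0 of 44 passed at day 7 by edgeR. The day 19 count was 6 without T3 replicate 1 and 7 without T4 replicate 1.

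Antagonist and modulator genes went in both directions at day 19: 5 higher and 5 lower of 15 with T3, and 6 higher and 5 lower with T4. Of all genes, 52.3% were called with T3 (25.1% higher, 27.3% lower) and 42.8% with T4 (21.0% higher, 21.9% lower). CRIM1, which encodes a membrane protein that binds BMPs, rose from 121 ± 14.6 CPM to 259 ± 18.3 CPM with T3 (1.10, adjusted p = 2.6e-08). BAMBI, a decoy receptor gene, fell from 241 ± 1.07 CPM to 109 ± 11.7 CPM with T3 (-1.15, adjusted p = 3.0e-09). SOSTDC1, a secreted antagonist gene, fell from 5.04 ± 0.70 CPM to 1.41 ± 0.39 CPM with T3 (-1.83, adjusted p = 1.9e-04). CRIM1, BAMBI and SOSTDC1 were called with T4 too, at changes of 0.66, -0.59 and -0.96 (adjusted p = 1.0e-05, 4.7e-06 and 0.0138). NBL1 fell by 1.60 with T3 (adjusted p = 0.0017) and 1.42 with T4 (adjusted p = 0.0046), but DESeq2 did not call it (0.461 and 0.548), and the T4 call was lost without T4 replicate 1 (0.058). CHRDL1, a chordin-like antagonist gene, was under 1 CPM in each group and fell by 2.06 with T3 (adjusted p = 0.0097) and 1.89 with T4 (0.0161); the calls were lost without DMSO replicate 1 (0.13 and 0.192), T3 replicate 2 (0.0724) or T4 replicate 2 (0.12).

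**Figure D4:**
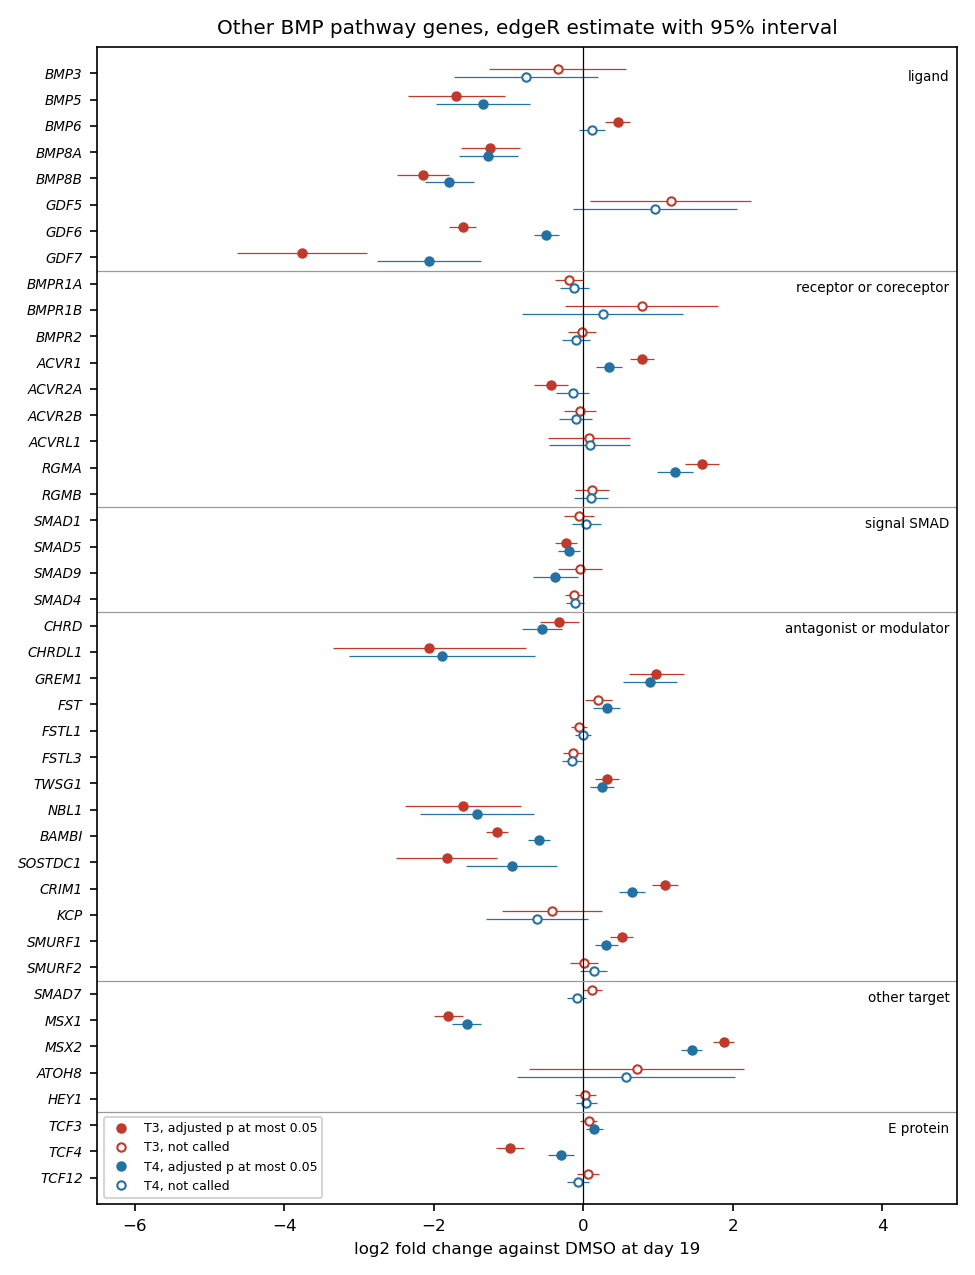
Log2 fold change against DMSO at day 19 (x axis) of 43 other pathway genes tested (y axis, grouped by role) for T3 (red) and T4 (blue), with 95% intervals; filled points passed an adjusted p of 0.05. RGMA and ACVR1 lie above 0 among the receptors and coreceptors with both hormones, and MSX2 and MSX1 lie on opposite sides.

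Other cell types' markers moved with these results, and their part in them was not tested. At day 7, 6 of 7 tested pluripotency markers were higher with each hormone. Their summed level was 1463 to 1474 CPM in DMSO, 2383 to 2397 CPM with T3 and 2065 to 2099 CPM with T4. No level was found under the symbol TDGF1 in any group. Whether the symbol was unmatched or the gene had no counts was not checked. Of 8 endothelial markers, 6 were lower with each hormone at day 7 (88.2 to 89.3 CPM in DMSO, 48.9 to 51.4 CPM with T3, 51.2 to 53.9 CPM with T4). The hepatic list fell at day 7 in 7 of 10 markers with T3 and 5 with T4. Of all genes at day 7, 9.43% were higher and 6.54% lower with T3, and 3.90% higher and 2.52% lower with T4.

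At day 19 the hepatic list was lower in 10 of 10 markers with T3 and 9 with T4. Of all genes at day 19, 27.3% were lower and 25.1% higher with T3, and 21.9% lower and 21.0% higher with T4. The 10 mesenchymal and stellate markers, of a cell type that makes BMP ligands in the embryo, summed to 6526 to 6765 CPM in DMSO, 2605 to 3460 CPM with T3 and 3542 to 3949 CPM with T4. With T3, 7 of these were lower and 2 higher, and with T4 6 were lower and 2 higher. The 8 markers of amnion and extraembryonic epithelium summed to 2164 to 2266 CPM in DMSO, 3245 to 3267 CPM with T3 and 3302 to 3522 CPM with T4 (3 higher and 3 lower with T3, 4 and 3 with T4). The 6 intestinal markers summed to 1935 to 2101 CPM in DMSO, 382 to 461 CPM with T3 and 751 to 975 CPM with T4. With each hormone 4 of the 5 tested were lower and 0 higher. The 6 neural markers summed to 86.0 to 88.5 CPM in DMSO, 256 to 290.3 CPM with T3 and 207 to 229 CPM with T4. Only 2 of the 6 reached a mean of 1 CPM in each group, so few genes made up these sums. Just 3 were tested, and 2 were higher and 0 lower with each hormone. SOX1 and NEUROG2 were at 0 in DMSO, NEUROG2 at 0 with T3 and SOX1 at 0 with T4. MUC2, of the intestinal list, was at 0 in DMSO and with T4. The pluripotency markers summed to 84.5 to 86.9 CPM in DMSO, 128 to 132 CPM with T3 and 127 to 134 CPM with T4. Among the 7 tested, 3 were higher with T3 and 4 with T4, and 0 were lower. The endothelial sums of day 19 overlapped between DMSO (109 to 121 CPM) and T4 (110.0 to 133 CPM), with T3 at 122 to 123 CPM. Of the 8 endothelial markers, 4 were lower and 1 higher with T3, and 3 lower and 1 higher with T4.

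Over the 12 libraries, by Pearson's r of log2 CPM, NOG and SMAD6 followed each other most closely among the members (r = 0.991), then ID1 and BMPER (0.982). ID3 ran against most of them, with r = -0.841 to NOG. Across 16237 genes compared, the gene most like NOG was MSX1 (r = 0.994), which is itself in the pathway list, and the gene most like BMP4 was PODXL (0.998). RRS1 was most like BMP7 (0.995), MYG1 most like ID1 (0.997), CCDC183 most like SMAD6 (0.993) and MCRS1 most like BMPER (0.996). ZNF84 was most like ID2 (0.992), TOP3B most like ID3 (0.967), RIMKLA most like ID4 (0.976) and ZCCHC24 most like BMP2 (0.979). These values describe libraries that share days, treatments and scaling, and they carry no test.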

How the data were processed

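RNA levels were measured in 12 libraries, 2 in each of 6 groups. Per the submitters' processing notes, the authors used HISAT, Bowtie2 and RSEM with the hg38 build; versions are not given in the sources used here, nor is the strand of counting. The deposited tables give, per the file headers, an expected count and an FPKM for each transcript. The expected counts are estimated reads per transcript, not normalised by the authors. The deposited FPKM values, which correct for length and library size, served to compare levels between genes and as an alternative unit.

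Both were summed per Entrez gene (pandas 2.3.3, numpy 2.4.6, Python 3.11.15), and summed counts were rounded. Of 23922 genes, 23801 matched a symbol of the RefSeq table and 121 did not. Tests used edgeR 4.0.16 in R 4.3.3: filterByExpr (18101 genes kept), TMM, and a single quasi-likelihood fit of 12 libraries with 1 mean per group, no replicate block and 6 residual degrees of freedom. Tests were two-sided F tests with Benjamini-Hochberg adjustment over all genes tested, called at 0.05. The biological coefficient of variation was 5.42%. Libraries of a group differed by more than sampling noise (day 7 chi-square per gene 1.59 to 2.10, day 19 chi-square 4.95 to 8.62). The script was tested on simulated data.

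Alternatives were DESeq2 1.42.0, no filter, limma 3.58.1 on log2(FPKM + 0.1) and log2(FPKM + 1), a replicate block, library sizes without the most abundant genes, the libraries of 1 day alone, and each library left out. On the FPKM scale the log2 fold changes of all genes had a median of -0.38 between the days in DMSO (-0.0013 in edgeR), 0.12 for T4 at day 19 (0.0005 in edgeR) and 0.14 for the stage difference of the T4 effect (-0.011 in edgeR).

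The members, the pathway list and the marker lists were chosen with earlier results of these data known. All members were named. Of the other pathway genes, those called with an absolute log2 fold change of at least 1 were named in each hormone comparison within a day, with BMPR1A, BMPR2, ACVR1, SMAD1, SMAD5 and SMAD4. The result of 1 gene within this rule is not reported here. The likeness of genes was Pearson's r of log2 CPM with a prior count of 2, over 12 libraries and the genes that reached 1 CPM. Promoter sequences and starts are from RefSeq on GRCh38.p14, and overlaps from GENCODE v29.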

Additional observations from a re-analysis of the deposited data

Results flagged for a closer look

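A hormone effect that differed between the days was found for 7 members with T3 and 7 with T4, each tested as the day 19 effect minus the day 7 effect in edgeR's quasi-likelihood fit. The same test called 38.0% of all genes for T3 and 27.7% for T4. With T3 the difference on the log2 scale was -0.74 for BMP4 (SE 0.116, adjusted p = 1.4e-04), 1.04 for BMP7, 0.61 for BMPER (SE 0.22, adjusted p = 0.04), -1.56 for NOG, -0.42 for SMAD6 (SE 0.099, adjusted p = 0.0036), 0.44 for ID2 (SE 0.0809, adjusted p = 6.3e-04) and 0.70 for ID3 (SE 0.0982, adjusted p = 5.8e-05). BMP4, BMPER, ID2 and ID3 had T3 effects of opposite sign on the 2 days. Among these genes only the ID2 effect passed on its own at day 7. The BMPER difference was lost without either day 7 DMSO replicate (0.0577 and 0.103), day 7 T3 replicate 1 (0.122), day 19 DMSO replicate 1 (0.196) or either day 19 T3 replicate (0.0603 and 0.099), in DESeq2 (0.122), without a filter on low counts (0.0515) and with limma on log2(FPKM + 1) (0.0617).

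With T4 the difference was -0.38 for BMP2 (SE 0.0974, adjusted p = 0.0092), -0.48 for BMP4 (SE 0.114, adjusted p = 0.0058), 0.81 for BMP7 (SE 0.128, adjusted p = 2.9e-04), -1.41 for NOG (SE 0.212, adjusted p = 2.0e-04), 0.28 for ID1 (SE 0.0924, adjusted p = 0.0334), 0.73 for ID3 (SE 0.0982, adjusted p = 7.2e-05) and -0.41 for ID4 (SE 0.102, adjusted p = 0.0079). The ID1 difference was lost without day 7 DMSO replicate 1 (0.0802) or replicate 2 (0.106), day 7 T4 replicate 2 (0.143), day 19 DMSO replicate 1 (0.103) or day 19 T4 replicate 1 (0.143). With limma on log2(FPKM + 0.1) those of BMP2 (0.149), BMP4 (0.0937) and ID4 (0.0774) were lost too. SMAD6 fell just short (-0.28, adjusted p = 0.05004) and passed without day 19 DMSO replicate 1 (0.0339) or day 19 T4 replicate 2 (0.026). ID2 (0.21, adjusted p = 0.0676) and BMPER (0.52, adjusted p = 0.0937) did not pass either. With limma on log2(FPKM + 0.1) and log2(FPKM + 1) the ID2 difference did pass (adjusted p = 0.0032 and 0.0028). With a library left out the difference ranged from 0.14 to 0.28 for ID2 and from 0.33 to 0.75 for BMPER. The markers of hepatic cells also differed between the days in their hormone effect, in 9 of 10 with T3 and 9 of 10 with T4, all lower. Of all genes, 38.0% and 27.7% differed in either direction. The part of the hepatic markers in the members' differences was not tested.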

How the results depend on the processing

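Of 51 called results on the members, 35 kept their call under every setting tried, and 0 reversed. Members called with T3 at day 7 numbered 2 to 4 when a library was left out (6 in all); with T4 at day 7 they numbered 8 in the day 7 libraries alone (1 in the full fit). Between the hormones, members called numbered 1 in the day 7 libraries alone (0 in the full fit) and, at day 19, 1 with limma at either pseudocount, 0 in the day 19 libraries alone and 0 to 2 with a library left out (2 in the full fit). The same settings were applied to the other pathway genes after the data were seen, and moved their called counts from 9 to 19 (T3, day 7), 5 to 14 (T4, day 7) and 11 to 7 (T4 against T3, day 19) in the libraries of 1 day alone.

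The numbers of a group pair no libraries by label, and the correlation of same-numbered libraries was -0.078 to 0.125 over the 15 pairs of groups. With the replicate block the members called remained 6, 1, 9 and 9 in number against DMSO, 0 and 2 between the hormones, 10 between the days and 7 for the stage difference with T3, and became 8 (from 7) with T4, where SMAD6 passed (adjusted p = 0.0415).

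Signs turned only for values that had not passed the test. With limma on log2(FPKM + 0.1) and log2(FPKM + 1), ID4 with T3 at day 7 was -0.0169 and -0.0165, and ID3 between the hormones at day 19 was 0.0309 and 0.0308. At day 19 these gave, with T3, 0.0627 and 0.0554 for BMPR2 and 0.0192 and 0.0162 for SMAD1, and, with T4, 0.0201 and 0.0179 for BMPR1A, 0.0337 and 0.0298 for BMPR2, and 0.0230 and 0.0209 for SMAD4. With the higher pseudocount the stage difference of the T3 effect was 0.0030 for BMP2. DESeq2 gave 0.0259 for BMPR2 with T3 at day 19.

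With a library left out, BMPER ranged from -0.197 to 0.0443 with T3 at day 7 and from -0.0938 to 0.00097 with T4. ID4 with T3 at day 19 ranged from -0.0739 to 0.161, its stage difference from -0.0948 to 0.141, and ID2 with T4 at day 19 from -0.0104 to 0.127. Between the hormones at day 7 the ranges were -0.0026 to 0.0627 for BMP2, -0.0913 to 0.150 for BMPER, -0.0468 to 0.0565 for SMAD6 and -0.0697 to 0.0165 for ID1, and at day 19 -0.130 to 0.0748 for ID3. BMPR2 ranged from -0.0936 to 0.0071 with T3 and -0.0392 to 0.0278 with T4 at day 7, and from -0.155 to 0.127 and -0.234 to 0.0482 at day 19. ACVR1 with T4 at day 7 ranged from -0.0432 to 0.0032, and at day 19 with T4 BMPR1A ranged from -0.267 to 0.0457 and SMAD1 from -0.0396 to 0.114.

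Over all genes, calls with T3 at day 7 numbered 2891, against 1876 in DESeq2, 5328 in the day 7 libraries alone and 1308 to 1461 with a library left out. With T4 at day 7 they numbered 1162, against 773, 3460 and 371 to 393. Between the hormones they numbered 66 at day 7 (34 with limma on log2(FPKM + 0.1), 435 in the day 7 libraries alone, 19 to 26 with a library left out) and 2848 at day 19 (1478 in the day 19 libraries alone, 1510 to 3322 with a library left out). With 2 libraries a group, a lone library left in a group was assumed to vary like the others. Counting error weighs on genes of low count, such as NOG, with 22 counts in its lowest library.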
